A study of Xenopus laevis with 24 samples.

Results

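The comparison set *Xenopus laevis* gastrulae exposed to TTNPB, a synthetic agonist selective for the retinoic acid receptors (RARs), against gastrulae exposed to the solvent alone. Its members were the libraries whose exposure label was TTNPB or vehicle, 16 of the 24 libraries in the series. The TTNPB group held 8 libraries from embryos kept in 1 µM TTNPB, 4 from clutch D and 4 from clutch E. The vehicle group held 8 libraries from embryos kept in 0.1% ethanol, also 4 from each clutch. All embryos came from eggs fertilized in vitro, entered the solutions at stage 6 to 7 in dishes of 25 embryos in 10 mL, and were collected whole at gastrula stage 10.5. Each library was made from the RNA of a pool of 5 embryos. The pools were taken as aliquots of a dish, and the labels do not say whether the 4 pools of an exposure and clutch came from 1 dish or from several. The p-values therefore measure the spread between pools, which may be embryos that shared a dish, and only 2 clutches stand behind them.

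Retinoic acid is a small lipid hormone made from vitamin A in the early embryo. It binds RARs, which sit on DNA as partners of the retinoid X receptors (RXRs). Without a ligand the pair holds corepressors at its target genes, and with a ligand it exchanges them for coactivators. In vertebrate embryos retinoic acid is best known for patterning the head to tail axis, where it turns on hox genes of the hindbrain and trunk and limits the head territory, and for feeding back on its own breakdown through Cyp26 enzymes.

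The values were FPKM, which is fragments scaled to transcript length and to the mapped fragments of the library, for 31306 GenBank records. A record is 1 deposited transcript sequence, so a gene, or its copies on the paired L and S subgenomes of this species, can appear as several records. Reads shared by near-identical copies make the split between such records uncertain. FPKM values hold no read numbers, and library depth is unknown. Of all records, 296 were at 0 in all 16 libraries, 5428 had a mean above 0 and under 0.2 FPKM, and 25582 averaged 0.2 FPKM or more and were tested. The tested records comprised 6015 with a mean of 0.2 to 1 FPKM and 19567 with a mean of at least 1 FPKM. The first principal component (25.7% of the variance) separated the clutches and the second (8.04%) separated the exposures. On the third (6.99%) TTNPB replicate 2D (-48.12) and vehicle replicate 3D (48.45) lay furthest apart. TTNPB replicate 2D also had the most records at 0 of the 16 libraries, 3997. In 6 of the 8 clutch D libraries the 10 most abundant records held 60.3% to 62.8% of all FPKM, while in TTNPB replicate 4D and vehicle replicate 3D they held 47.9% and 46.9%, near the 47.3% to 51.3% of clutch E. Counts without these 2 libraries are given beside the counts below. Genes that define a gastrula were present in both groups: *tbxt* (brachyury), the T-box gene of early mesoderm, averaged 122 ± 21.6 FPKM with TTNPB and 130.02 ± 24.4 FPKM with vehicle, and *sox17a*, an endodermal gene, averaged 41.1 ± 5.86 FPKM with TTNPB and 36.8 ± 7.12 FPKM with vehicle (SD, n = 8 each). In whole embryos a lower value can mean fewer cells of a type or less RNA per cell, and the data cannot tell these apart.

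TTNPB raised many more records than it lowered. With a limma fit on log2(FPKM + 1) with exposure and clutch as terms, 291 of the 25582 tested records passed an adjusted p of 0.05 (Benjamini-Hochberg). Of these, 260 were higher with TTNPB, which is 1.02% of the tested records, and 31 were lower, which is 0.121%. The sign of the difference was shared by clutches D and E for all 291. These records were chosen on the same values, so nothing is read from that agreement. Of the 260 higher records 79 differed by at least 2-fold and 70 by less than 1.5-fold, on the scale of FPKM + 1, and the median log2 change was 0.80. Of the 31 lower records 3 differed by at least 2-fold and 17 by less than 1.5-fold, and the median log2 change was -0.56. Without TTNPB replicate 4D and vehicle replicate 3D, 202 records were higher and 20 were lower. The counts were 248 higher and 50 lower with quantile scaling, 179 higher and 9 lower in a fit of all 24 libraries, and 171 higher and 10 lower with no clutch term. The fit of all 24 added the AGN193109 libraries. In replicate 4E of these the 10 most abundant records held 79.2% of all FPKM, against 46.9% to 62.8% in the 16 libraries. Its tested records had a median of 1.77 FPKM, against 2.51 to 3.51 FPKM. The effect of that library on the counts was not tested. An unadjusted p under 0.05 was reached by 1569 higher and 883 lower records.

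The higher records had a median vehicle level of 4.47 FPKM, close to the 3.16 FPKM of all tested records. Of the 260, 58 had a vehicle mean under 1 FPKM, a share not counted over all tested records. By the mean over the 16 libraries, 21 of the 260 and 6015 of the 25582 tested records were under 1 FPKM. The lower records had a median vehicle level of 21.0 FPKM, against the same 3.16 FPKM of all tested records. In 107 of the 260 higher records every TTNPB value lay above every vehicle value, an arrangement found in 0.438% of the tested records. In 8 of the 31 lower records every TTNPB value lay below every vehicle value, found in 0.0469%. A gene name could be given to 108 of the 260 higher and 13 of the 31 lower records, and the descriptions of the remainder named no single gene.

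**Figure D1:**
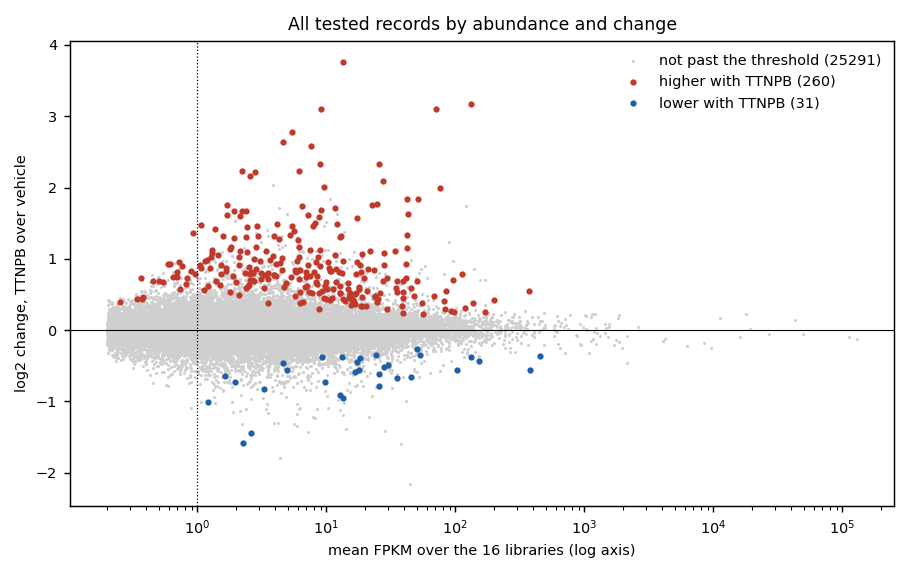
The log2 change of TTNPB over vehicle (vertical axis) is plotted against the mean FPKM over the 16 libraries (logarithmic horizontal axis) for each of the 25582 tested records, with the 260 higher records in red, the 31 lower records in blue and the dotted line at 1 FPKM. Red points reach further from 0 than blue ones, and no blue point lies left of the dotted line.

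Among the 11 tested records of retinoid metabolism and receptors, those past the threshold came from the breakdown enzyme and 1 receptor gene. Of the 27 genes in that list 13 were matched to a record. *cyp26a1*, the cytochrome P450 that oxidises retinoic acid, stood at 205 to 278 FPKM (median 238) in the TTNPB libraries, against 18.3 to 34.7 FPKM (median 25.4) in the vehicle libraries. All TTNPB libraries lay far above all vehicle libraries. Its log2 change was 3.18 ± 0.10 (SE; adjusted p = 9.28e-12). A second *cyp26a1* record had 112 to 159.8 FPKM (median 125) in the TTNPB libraries, against 11.4 to 22.002 FPKM (median 13.3) in the vehicle libraries. It changed by 3.10 ± 0.11 (SE; adjusted p = 2.01e-11), and its highest vehicle value came from replicate 3D.

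*rara*, the gene of RAR alpha itself, stood at 10.5 to 15.02 FPKM (median 12.1) in the TTNPB libraries, against 2.04 to 6.19 FPKM (median 3.69) in the vehicle libraries. The groups did not overlap, and its log2 change was 1.499 ± 0.16 (SE; adjusted p = 2.52e-05). The clutches had similar TTNPB levels but different vehicle levels: *rara* averaged 11.4 FPKM with TTNPB and 5.44 FPKM with vehicle in clutch D, and 13.2 FPKM with TTNPB and 2.42 FPKM with vehicle in clutch E. The log2 change was 2.05 in clutch E and 0.95 in clutch D, and the difference between the clutches did not pass (limma interaction, adjusted p = 0.187). The smallest adjusted p of that test over all tested records was also 0.187.

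*rarb*, the RAR beta gene, had under 0.001 to 1.31 FPKM (median 0.757) in the TTNPB libraries, against 0 to 2.16 FPKM (median 0.554) in the vehicle libraries. These ranges overlapped across most of their length, and *rarb* differed by -0.05 ± 0.26 (SE; adjusted p = 0.975). *rdh10*, whose enzyme turns retinol into retinal, had 6.82 to 11.2 FPKM (median 7.88) in the TTNPB libraries, against 6.05 to 11.2 FPKM (median 8.92) in the vehicle libraries, a difference of -0.07 ± 0.13 (SE; adjusted p = 0.917). Of 11 tested records of retinoid enzymes and receptors 3 were higher, beside 1.02% of all tested records, and none was lower. Their median log2 change was -0.05, beside 0.01 for all tested records. The 8 that did not pass included the RXR genes *rxrb* (0.24 ± 0.09) and *rxrg* (-0.29 ± 0.20), the corepressor gene *ncor1* (-0.06 ± 0.06), and *crabp1* (-0.23 ± 0.41), which encodes a cytoplasmic retinoic acid binding protein. Among 10 records of other nuclear receptors 1 was higher, *nr6a1*, the orphan receptor gene also called germ cell nuclear factor (median of the list 0.05). *nr6a1* had 38.6 to 97.5 FPKM (median 67.2) in the TTNPB libraries, against 11.8 to 21.04 FPKM (median 18.4) in the vehicle libraries. Its log2 change was 1.84 ± 0.13 (SE; adjusted p = 9.88e-08), and the lowest TTNPB library was above the highest vehicle library. *rarg*, *rxra*, *dhrs3*, *aldh1a2* and *otx2* were not analysed here, since no tested record was matched to them by name.

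The hox genes, which give cells their position along the head to tail axis, were, of the 20 gene lists examined, the group with the largest share of higher records. The list of paralogs 1 to 5 holds genes that act in the hindbrain and neck region. Of its 9 tested records 8 were higher, beside 1.02% of all tested records, and none was lower. Their median log2 change was 2.22. *hoxb1* had 2.90 to 7.27 FPKM (median 5.47) in the TTNPB libraries, against 0 to 1.68 FPKM (median 0.231) in the vehicle libraries. Its highest vehicle value came from replicate 2D and stood apart from the other 7, yet it still lay below every TTNPB value, and the log2 change was 2.22 ± 0.21 (SE; adjusted p = 7.77e-06). *hoxa3* had 2.87 to 5.09 FPKM (median 4.54) in the TTNPB libraries, against 0 to 0.294 FPKM (median 0.0925) in the vehicle libraries. It was thus close to 0 in all vehicle libraries and several FPKM in all TTNPB libraries, with a log2 change of 2.24 ± 0.12 (SE; adjusted p = 3.94e-09).

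Both *hoxa2* records were higher. The record described as Hoxa2b had 5.91 to 11.8 FPKM (median 8.84) in the TTNPB libraries, against 0.179 to 1.04 FPKM (median 0.514) in the vehicle libraries, a log2 change of 2.64 ± 0.13 (SE; adjusted p = 2.87e-09). The other had 2.46 to 6.58 FPKM (median 3.50) in the TTNPB libraries, against 0.166 to 1.38 FPKM (median 0.434) in the vehicle libraries, a log2 change of 1.67 ± 0.19 (SE; adjusted p = 4.67e-05). *hoxd1* differed from these in having a clear vehicle level: it had 28.1 to 41.7 FPKM (median 34.4) in the TTNPB libraries, against 6.13 to 13.6 FPKM (median 9.76) in the vehicle libraries. Its log2 change was 1.75 ± 0.11 (SE; adjusted p = 2.90e-08). *hoxc5* was higher by 1.08 ± 0.14 (SE; adjusted p = 2.54e-04), at 2.12 ± 0.685 FPKM with TTNPB and 0.462 ± 0.192 FPKM with vehicle (SD, n = 8 each). *hoxb2*, the record of the list that did not pass, had a mean of 0.466 FPKM with TTNPB and 0.0616 FPKM with vehicle, a difference of 0.44 ± 0.14 (SE; adjusted p = 0.197).

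Hox paralogs 6 to 13 and the caudal-related *cdx* genes act in the trunk and tail. Of their 15 tested records 3 were higher, beside 1.02% of all tested records, and none was lower (median log2 change 0.30). *cdx4*, a regulator of posterior hox genes, had 29.98 to 60.3 FPKM (median 49.4) in the TTNPB libraries, against 16.3 to 26.3 FPKM (median 21.02) in the vehicle libraries. The groups did not overlap, and the log2 change was 1.12 ± 0.13 (SE; adjusted p = 8.88e-05). *hoxb6* had 1.64 to 3.28 FPKM (median 2.90) in the TTNPB libraries, against under 0.001 to 1.30 FPKM (median 0.523) in the vehicle libraries, a log2 change of 1.31 ± 0.17 (SE; adjusted p = 2.46e-04). *hoxc6*, in a record described as XlHbox1, had 1.17 to 3.17 FPKM (median 1.44) in the TTNPB libraries, against 0.274 to 0.711 FPKM (median 0.383) in the vehicle libraries, a log2 change of 0.87 ± 0.14 (SE; adjusted p = 0.00213). None of the records of paralogs 7 to 13 passed, and their levels were low, with the 2 *hoxa7* records at 0.36 ± 0.15 and 0.35 ± 0.22, *hoxa9* at 0.37 ± 0.18 and *hoxd9* at -0.47 ± 0.26. *cdx1* had 2 records, at -0.36 ± 0.33 and 0.34 ± 0.11, neither past the threshold.

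**Figure D2:**
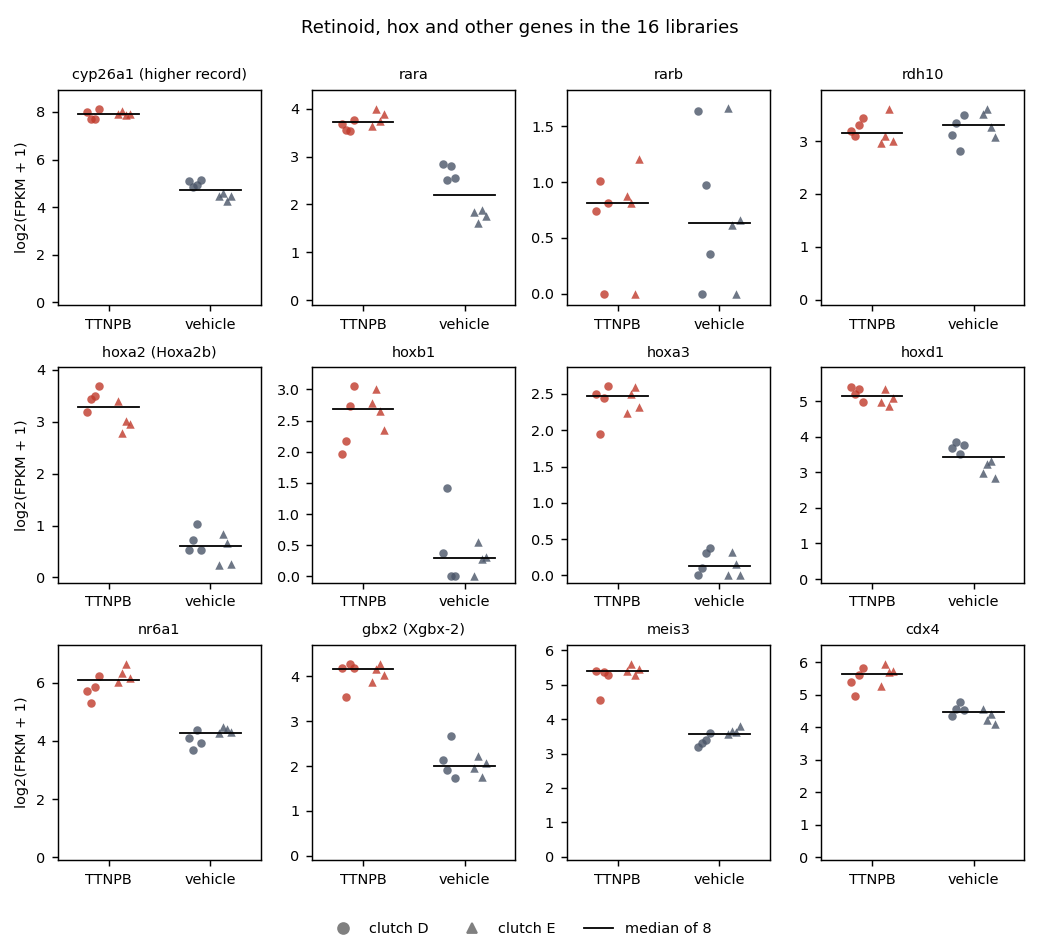
Each panel shows log2(FPKM + 1) in the 16 libraries for 1 record, TTNPB (red) left of vehicle (grey), with circles for clutch D, triangles for clutch E and a line at the median of 8. The groups do not overlap for *cyp26a1*, *rara*, the hox genes, *nr6a1*, *gbx2*, *meis3* and *cdx4*, while they overlap for *rarb* and *rdh10*.

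Several transcription factor genes of the hindbrain were higher with TTNPB. In the list of hindbrain and posterior neural patterning genes 6 of 18 tested records were higher and none lower (median log2 change 0.20). The share of higher records among all tested records was 1.02%. *gbx2*, a homeobox gene expressed behind the midbrain, had 2 records. The record Xgbx-2 had 10.6 to 18.3 FPKM (median 17.02) in the TTNPB libraries, against 2.31 to 5.33 FPKM (median 3.02) in the vehicle libraries, a log2 change of 2.01 ± 0.14 (SE; adjusted p = 1.14e-07). The record GBX-2b had 5.76 to 15.4 FPKM (median 10.97) in the TTNPB libraries, against 0.839 to 2.88 FPKM (median 1.21) in the vehicle libraries, a log2 change of 2.23 ± 0.19 (SE; adjusted p = 1.86e-06).

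*meis3*, which encodes a homeobox cofactor of Hox proteins in the hindbrain, also had 2 records, both higher. The first had 22.3 to 47.1 FPKM (median 40.9) in the TTNPB libraries, against 8.09 to 12.9 FPKM (median 10.9) in the vehicle libraries. TTNPB replicate 2D was the lowest of its group and still above all vehicle libraries, and the log2 change was 1.77 ± 0.11 (SE; adjusted p = 2.23e-08). The record meis3-B had 21.3 to 35.7 FPKM (median 26.4) in the TTNPB libraries, against 11.6 to 19.9 FPKM (median 14.2) in the vehicle libraries, a log2 change of 0.85 ± 0.09 (SE; adjusted p = 3.52e-05). *irx2*, an Iroquois homeobox gene, rose by 0.49 ± 0.10 (SE; adjusted p = 0.0174). *irx1* (0.30 ± 0.11), *irx3* (-0.21 ± 0.09), *mafb* (-0.19 ± 0.14), *pbx2* (0.15 ± 0.13) and *en2* (0.03 ± 0.11) did not pass.

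Zinc finger and other regulators outside the hox and *meis* families were among the largest named rises. A record described as nocA-like zinc finger 1 had 90.3 to 163 FPKM (median 126) in the TTNPB libraries, against 25.6 to 34.8 FPKM (median 28.9) in the vehicle libraries, and changed by 1.99 ± 0.11 (SE; adjusted p = 5.78e-09). The related record of *znf703*, its A copy, had 53.8 to 75.6 FPKM (median 65.5) in the TTNPB libraries, against 10.0 to 47.4 FPKM (median 19.2) in the vehicle libraries, and changed by 1.63 ± 0.21 (SE; adjusted p = 2.21e-04). For this record the TTNPB libraries were close together while the vehicle libraries spread widely. A Dachshund-like record (DAWG) had 11.4 to 16.3 FPKM (median 13.6) in the TTNPB libraries, against 2.84 to 4.51 FPKM (median 3.95) in the vehicle libraries, and changed by 1.59 ± 0.09 (SE; adjusted p = 1.49e-08). *Mxi1*, whose product pairs with Max and opposes Myc, had 50.5 to 69.6 FPKM (median 60.9) in the TTNPB libraries, against 20.03 to 32.02 FPKM (median 21.7) in the vehicle libraries, and changed by 1.34 ± 0.09 (SE; adjusted p = 8.64e-08). None of these 4 records had a TTNPB value within its vehicle range. Other records among the 25 largest named rises encode structural and adaptor proteins. *efs*, an adaptor of Src family kinases, had 9.16 to 16.2 FPKM (median 12.2) in the TTNPB libraries, against 2.68 to 5.97 FPKM (median 3.27) in the vehicle libraries, a log2 change of 1.46 ± 0.13 (SE; adjusted p = 3.89e-06). Peripherin, an intermediate filament protein of neurons, had 1.54 to 3.84 FPKM (median 2.33) in the TTNPB libraries, against 0 to 0.531 FPKM (median 0.250) in the vehicle libraries, a log2 change of 1.41 ± 0.13 (SE; adjusted p = 3.89e-06).

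Higher records occurred both in the list of neural plate genes and in that of non-neural ectoderm genes. The libraries came from whole embryos, so membership of a list does not place a change in that tissue. Of 17 neural plate records 2 were higher, beside 1.02% of all tested records, and none was lower (median -0.02). *myt1*, a zinc finger gene of neuronal differentiation, had 3.27 to 7.57 FPKM (median 5.77) in the TTNPB libraries, against 0.904 to 3.33 FPKM (median 2.33) in the vehicle libraries, a log2 change of 1.04 ± 0.17 (SE; adjusted p = 0.00328). *sox2*, an early neural gene, had 7.21 to 14.5 FPKM (median 12.01) in the TTNPB libraries, against 5.60 to 10.8 FPKM (median 8.06) in the vehicle libraries. The groups overlapped in part, and the change of 0.44 ± 0.10 (SE; adjusted p = 0.0464) was lost in 14 of the 16 fits that each left out 1 library, with an adjusted p of up to 0.101 (without TTNPB replicate 4E). *sox3* (0.23 ± 0.07) and *zic1* (-0.24 ± 0.07) did not pass.

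Of 24 records of non-neural ectoderm and keratins 5 were higher, beside 1.02% of all tested records, and none was lower (median 0.23). *dlx3*, a homeobox gene of the epidermis and neural plate border, had 4.72 to 10.6 FPKM (median 8.21) in the TTNPB libraries, against 1.72 to 5.91 FPKM (median 3.56) in the vehicle libraries. Its change was 0.98 ± 0.19 (SE; adjusted p = 0.0155), and without TTNPB replicate 4D and vehicle replicate 3D it did not pass (adjusted p = 0.0520). *foxi1*, a forkhead gene of the ectoderm, had 4.76 to 7.88 FPKM (median 5.95) in the TTNPB libraries, against 1.87 to 3.83 FPKM (median 2.63) in the vehicle libraries, a log2 change of 0.94 ± 0.13 (SE; adjusted p = 5.43e-04). *gata3* and *gata2* encode zinc finger factors of ventral ectoderm and mesoderm. *gata3* had 17.5 to 27.7 FPKM (median 20.7) in the TTNPB libraries, against 7.93 to 22.8 FPKM (median 11.4) in the vehicle libraries, a log2 change of 0.79 ± 0.14 (SE; adjusted p = 0.00810). *gata2* had 24.9 to 42.2 FPKM (median 34.2) in the TTNPB libraries, against 13.4 to 34.2 FPKM (median 19.4) in the vehicle libraries, and its change of 0.69 ± 0.15 (SE; adjusted p = 0.0249) was lost in 9 of the 16 fits that each left out 1 library, with an adjusted p of up to 0.0604 (without vehicle replicate 1E). *grhl1*, a grainyhead-like gene of the epidermis, rose by 0.44 ± 0.10 (SE; adjusted p = 0.0449). B2 keratin, a record outside that list, had 45.4 to 109 FPKM (median 82.4) in the TTNPB libraries, against 14.2 to 34.4 FPKM (median 20.3) in the vehicle libraries. It changed by 1.83 ± 0.20 (SE; adjusted p = 4.23e-05), whereas *krt8* (0.44 ± 0.11), *krt18* (0.24 ± 0.08) and *krt19* (-0.11 ± 0.19) did not pass.

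In the lists of genes of the germ layers below the ectoderm, 1 or 2 records each were higher. Of all tested records 1.02% were higher. Of the list of pan-mesodermal and ventrolateral genes, 2 of 35 were higher, *gata2* and *cdx4*, and none was lower (median 0.00). *tbxt* had 93.8 to 153 FPKM (median 122) in the TTNPB libraries, against 103 to 163 FPKM (median 128) in the vehicle libraries. The groups covered nearly the same range, with a difference of -0.09 ± 0.05 (SE; adjusted p = 0.669), and a second record (Xbra3) differed by 0.01 ± 0.08 (SE; adjusted p = 0.986). *vegt* (-0.01 ± 0.10), *fgf8* (-0.04 ± 0.08) and *snai1* (-0.04 ± 0.11) were also near 0.

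In the presomitic and myogenic list 1 of 19 was higher, a *mespa* record known as thylacine 2 (median 0.18). Of all tested records 1.02% were higher, and nothing about this list or the endoderm list is read from 1 record. *mespa* encodes a helix-loop-helix factor of the segmenting mesoderm. This record had 1.64 to 5.72 FPKM (median 4.21) in the TTNPB libraries, against 1.15 to 3.41 FPKM (median 1.36) in the vehicle libraries. Its change of 0.85 ± 0.19 (SE; adjusted p = 0.0377) was lost in 13 of the 16 fits that each left out 1 library, with an adjusted p of up to 0.0916 (without TTNPB replicate 2E). In the endoderm list 1 of 22 was higher and none lower (median 0.07), and *sox17a* (0.17 ± 0.11), *gata4* (0.01 ± 0.10) and *foxa2* (0.30 ± 0.12) did not pass.

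In the list of organizer and axial mesoderm genes 1 of 14 was higher, beside 1.02% of all tested records, and none was lower. Of the 14, 11 had a log2 difference below 0 (median -0.22), against 11946 of the 25582 tested records. The higher one was *lhx1*, an organizer gene of the LIM class, with 17.1 to 31.6 FPKM (median 22.95) in the TTNPB libraries, against 8.65 to 16.3 FPKM (median 12.2) in the vehicle libraries, a log2 change of 0.91 ± 0.13 (SE; adjusted p = 7.98e-04). *gsc* (goosecoid), the homeobox gene that marks the organizer, had 1.76 to 8.94 FPKM (median 5.36) in the TTNPB libraries, against 6.18 to 12.2 FPKM (median 9.72) in the vehicle libraries. The groups overlapped, and its difference of -0.64 ± 0.24 (SE; adjusted p = 0.350) did not pass. It was -1.13 in clutch E and -0.15 in clutch D. *chrd*, the gene of the BMP antagonist Chordin, had 42.5 to 80.6 FPKM (median 58.8) in the TTNPB libraries, against 54.1 to 75.1 FPKM (median 66.3) in the vehicle libraries, a difference of -0.17 ± 0.08 (SE; adjusted p = 0.543).

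In several signalling pathways a minority of the tested records were higher, beside 1.02% of all tested records. Of 24 WNT records 4 were higher and none lower (median 0.08). *kremen2*, whose product is a receptor for the WNT inhibitor Dickkopf, had 2.93 to 10.1 FPKM (median 6.63) in the TTNPB libraries, against 1.08 to 2.66 FPKM (median 1.70) in the vehicle libraries, a log2 change of 1.48 ± 0.16 (SE; adjusted p = 3.32e-05). *fzd10*, a Frizzled receptor gene, had 15.7 to 34.8 FPKM (median 21.4) in the TTNPB libraries, against 7.97 to 14.9 FPKM (median 11.3) in the vehicle libraries, a log2 change of 0.95 ± 0.16 (SE; adjusted p = 0.00278). The change of *fzd10* was 1.42 in clutch E and 0.49 in clutch D, a difference that did not pass the limma interaction test. *fzd4*, another Frizzled gene, had 10.8 to 16.01 FPKM (median 13.99) in the TTNPB libraries, against 5.88 to 8.37 FPKM (median 7.19) in the vehicle libraries, a log2 change of 0.87 ± 0.08 (SE; adjusted p = 7.65e-06). None of these groups overlapped. *dact1*, which encodes a Dishevelled-binding protein, rose by 0.69 ± 0.08 (SE; adjusted p = 6.16e-05) in 1 record. *axin2* (0.37 ± 0.10), a feedback target of WNT, did not pass.

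In the FGF list 3 of 14 were higher, beside 1.02% of all tested records, and none was lower (median 0.18). *dusp6*, the phosphatase gene that switches off ERK, had 2 records. The record X17C had 5.36 to 10.3 FPKM (median 7.57) in the TTNPB libraries, against 1.09 to 4.76 FPKM (median 2.63) in the vehicle libraries, a log2 change of 1.34 ± 0.18 (SE; adjusted p = 3.79e-04). The other had 8.34 to 12.6 FPKM (median 10.7) in the TTNPB libraries, against 3.20 to 5.99 FPKM (median 3.96) in the vehicle libraries, a log2 change of 1.12 ± 0.11 (SE; adjusted p = 1.29e-05). *fgfr4*, an FGF receptor gene, had 37.9 to 50.96 FPKM (median 41.5) in the TTNPB libraries, against 29.4 to 42.5 FPKM (median 37.2) in the vehicle libraries, and its change of 0.24 ± 0.06 (SE; adjusted p = 0.0448) was lost in 14 of the 16 fits that each left out 1 library, with an adjusted p of up to 0.102 (without TTNPB replicate 3D). It was also lost with quantile and with upper-quartile scaling. The *spry1* and *spry2* records, other feedback genes of the pathway, did not pass.

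*jag1*, the Notch ligand gene present as X-Serrate-1, was the 1 higher record of 12 in the Notch list, where none was lower (median 0.13). Of all tested records 1.02% were higher, and nothing about the list is read from 1 record. The *jag1* record is described by its own values. It had 6.41 to 10.7 FPKM (median 7.76) in the TTNPB libraries, against 3.19 to 4.71 FPKM (median 3.93) in the vehicle libraries, a log2 change of 0.84 ± 0.08 (SE; adjusted p = 9.89e-06). In the ventral and BMP list 3 of 29 were higher, *gata3*, *gata2* and *id2*, and none was lower (median 0.11). *id2* encodes a helix-loop-helix inhibitor and BMP target. It had 16.7 to 49.8 FPKM (median 28.7) in the TTNPB libraries, against 11.2 to 35.5 FPKM (median 22.1) in the vehicle libraries, and its change of 0.52 ± 0.12 (SE; adjusted p = 0.0456) was lost in 11 of the 16 fits that each left out 1 library, with an adjusted p of up to 0.106 (without vehicle replicate 1E). *bmp4* (0.44 ± 0.20 and 0.47 ± 0.16 in 2 records) and *bambi* (0.08 ± 0.11) did not pass.

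Of 15 maternal records 1 was higher, beside 1.02% of all tested records, and none was lower (median -0.01). It was a *foxh1* record, from the gene of a Nodal signal transducer, with 14.3 to 19.4 FPKM (median 17.4) in the TTNPB libraries, against 11.8 to 15.8 FPKM (median 13.6) in the vehicle libraries, a log2 change of 0.35 ± 0.07 (SE; adjusted p = 0.0160). A second *foxh1* record went the other way without passing: it had 19.3 to 33.9 FPKM (median 24.9) in the TTNPB libraries, against 23.3 to 52.1 FPKM (median 38.2) in the vehicle libraries, a difference of -0.52 ± 0.13 (SE; adjusted p = 0.0608). No record passed among 12 early zygotic (median -0.15), 5 cell stress (median 0.35) and 3 ribosomal protein records (median 0.13). The last 2 lists hold too few records to describe those groups.

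**Figure D3:**
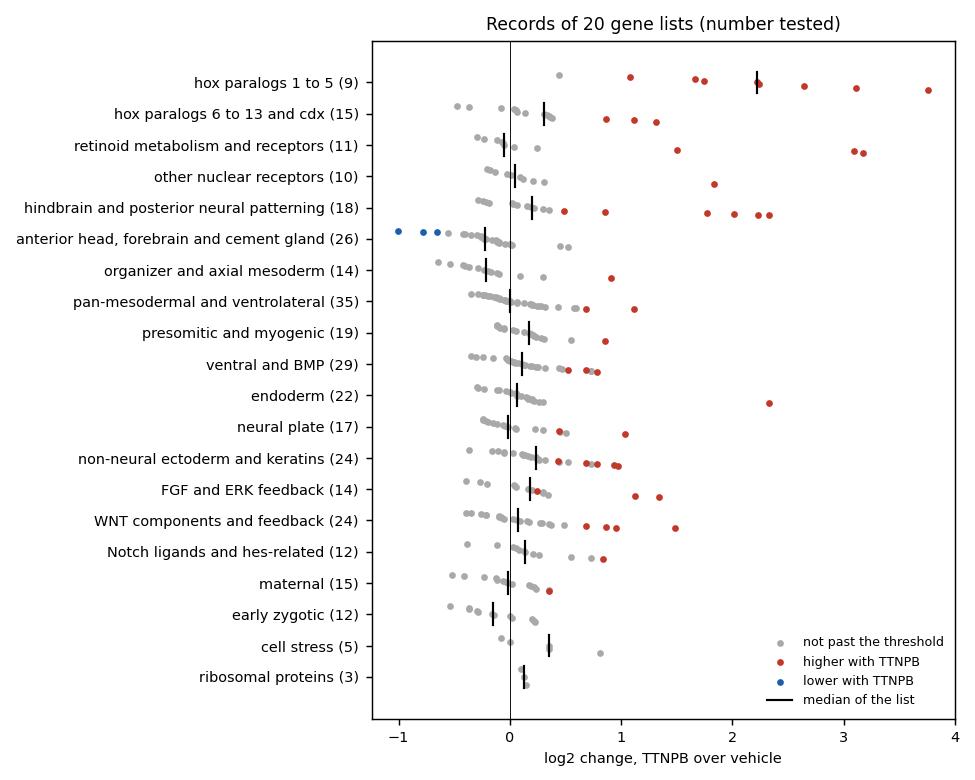
Each point is the log2 change of 1 record, TTNPB over vehicle (horizontal axis), sorted by value within each of the 20 gene lists (rows, with the number tested), in red where higher, blue where lower and grey where not past the threshold, with a bar at the median of the list. The median of the hox paralogs 1 to 5 stands far to the right of the others, and blue points occur in the anterior head list alone.

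Lower records among the 20 lists were found in that of the head genes. In the list of anterior head, forebrain and cement gland genes 3 of 26 tested records were lower and none higher. In 22 of the 26 the log2 difference was below 0 (median -0.22). The 26 records come from 16 genes, and records of 1 gene are not separate observations. Of all 25582 tested records 0.121% were lower and 11946 had a difference below 0 (median 0.01). This list shares members, among them *cer1* and *dkk1*, with the organizer list, so the leanings of these lists are not separate observations. *hesx1*, a homeobox repressor gene of the anterior neural plate, had 0 to 1.25 FPKM (median 0.399) in the TTNPB libraries, against 1.27 to 2.57 FPKM (median 1.89) in the vehicle libraries in the record hesx1-b. All 8 TTNPB libraries lay below all 8 vehicle libraries, though the highest and lowest of the groups nearly met, and the log2 change was -1.004 ± 0.16 (SE; adjusted p = 0.00210). A record described as XANF-2, also assigned to *hesx1*, had 0 to 0.979 FPKM (median 0.271) in the TTNPB libraries, against under 0.001 to 1.82 FPKM (median 0.326) in the vehicle libraries, a difference of 0.02 ± 0.17 (SE; adjusted p = 0.988). That record was under 1 FPKM in all libraries but vehicle replicate 2E.

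The 2 *otx5* records come from a gene of the Otx family of head homeobox genes. The record OTX5b had 25.9 to 44.2 FPKM (median 35.6) in the TTNPB libraries, against 49.1 to 61.1 FPKM (median 56.6) in the vehicle libraries, a log2 change of -0.66 ± 0.07 (SE; adjusted p = 3.32e-05). The record orthodenticle homolog 5 had 16.5 to 20.6 FPKM (median 18.4) in the TTNPB libraries, against 23.7 to 45.7 FPKM (median 33.9) in the vehicle libraries, a log2 change of -0.78 ± 0.11 (SE; adjusted p = 4.06e-04). In both the groups were apart in all 16 libraries. Members that did not pass included *ag1*, a cement gland gene (-0.56 ± 0.21), *otx1* (-0.29 ± 0.08), *six6* (-0.26 ± 0.27 in the more abundant record), *cer1* (-0.12 ± 0.09) and *dkk1* (-0.10 ± 0.12). The *pax6* records, both with vehicle means under 0.3 FPKM, stood above 0 (0.45 ± 0.14 and 0.52 ± 0.16) and did not pass.

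The other 10 named fallers came from varied genes outside that list. A heparan sulfate 3-O-sulfotransferase, an enzyme that modifies heparan sulfate chains, had 1.05 to 2.86 FPKM (median 2.05) in the TTNPB libraries, against 1.69 to 7.45 FPKM (median 3.87) in the vehicle libraries. Its change of -0.82 ± 0.18 (SE; adjusted p = 0.0306) was lost in 11 of the 16 fits that each left out 1 library, with an adjusted p of up to 0.0738 (without TTNPB replicate 2E). Cardiac troponin C, a calcium sensor of muscle, had 0.394 to 1.76 FPKM (median 1.11) in the TTNPB libraries, against 1.61 to 3.49 FPKM (median 2.03) in the vehicle libraries, and its change of -0.65 ± 0.15 (SE; adjusted p = 0.04996) was lost in 14 of the 16 fits that each left out 1 library, with an adjusted p of up to 0.113 (without vehicle replicate 1E). It was also lost with a pseudocount of 0.1 or 0.5. *laptm4a*, a gene of a lysosomal membrane protein, had 9.33 to 18.9 FPKM (median 12.8) in the TTNPB libraries, against 14.2 to 26.8 FPKM (median 19.6) in the vehicle libraries, and its change of -0.59 ± 0.13 (SE; adjusted p = 0.0310) was lost in 10 of the 16 fits that each left out 1 library, with an adjusted p of up to 0.0752 (without TTNPB replicate 2E).

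For 3 fallers the clutches stood at very different levels, so that the pooled ranges overlapped widely. Tiarin, a secreted protein that dorsalizes the frog neural tube, averaged 1.39 FPKM with TTNPB and 3.48 FPKM with vehicle in clutch D, and 57.2 FPKM with TTNPB and 77.9 FPKM with vehicle in clutch E. Its change of -0.67 ± 0.16 (SE; adjusted p = 0.04996) was lost in 14 of the 16 fits that each left out 1 library, with an adjusted p of up to 0.116 (without vehicle replicate 1E). *MRF4a*, a myogenic regulatory factor, averaged 25.7 FPKM with TTNPB and 50.3 FPKM with vehicle in clutch D, and 11.8 FPKM with TTNPB and 14.9 FPKM with vehicle in clutch E. Its change of -0.62 ± 0.13 (SE; adjusted p = 0.0274) was lost in 9 of the 16 fits that each left out 1 library, with an adjusted p of up to 0.0697 (without TTNPB replicate 2E). *tmem60*, a transmembrane protein gene, averaged 6.21 FPKM with TTNPB and 10.3 FPKM with vehicle in clutch D, and 1.15 FPKM with TTNPB and 2.03 FPKM with vehicle in clutch E. Within each clutch its TTNPB values all lay below its vehicle values, and the change of -0.56 ± 0.12 (SE; adjusted p = 0.0306) was lost in 9 of the 16 fits that each left out 1 library, with an adjusted p of up to 0.0723 (without vehicle replicate 1E).

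The last 4 named fallers moved by less than 1.5-fold. *rnf2*, a Polycomb ubiquitin ligase gene, had 1.92 to 5.17 FPKM (median 3.74) in the TTNPB libraries, against 3.14 to 8.60 FPKM (median 5.55) in the vehicle libraries, and its change of -0.46 ± 0.10 (SE; adjusted p = 0.0361) was lost in 13 of the 16 fits that each left out 1 library, with an adjusted p of up to 0.0869 (without vehicle replicate 1E). *rnf222*, a gene of another RING finger protein, had 13.8 to 17.99 FPKM (median 15.5) in the TTNPB libraries, against 17.02 to 23.4 FPKM (median 21.9) in the vehicle libraries, and its change of -0.39 ± 0.08 (SE; adjusted p = 0.0172) passed in all 16 such fits, but not without both TTNPB replicate 4D and vehicle replicate 3D (adjusted p = 0.0644). *fez2*, a fasciculation and elongation protein gene, had 16.8 to 27.1 FPKM (median 20.9) in the TTNPB libraries, against 22.2 to 36.9 FPKM (median 26.5) in the vehicle libraries, and its change of -0.35 ± 0.08 (SE; adjusted p = 0.0303) was lost in 8 of the 16 fits that each left out 1 library, with an adjusted p of up to 0.0733 (without TTNPB replicate 2E). *sall1*, a spalt zinc finger gene, had 37.3 to 51.7 FPKM (median 45.6) in the TTNPB libraries, against 44.6 to 64.5 FPKM (median 55.6) in the vehicle libraries, and its change of -0.26 ± 0.05 (SE; adjusted p = 0.0252) was lost in 11 of the 16 fits that each left out 1 library, with an adjusted p of up to 0.0632 (without vehicle replicate 1E). Of the 31 lower records 11 passed in all 16 fits that left out 1 library, against 175 of the 260 higher records. The count of lower records was 16 without TTNPB replicate 2E, 18 without TTNPB replicate 3D, 19 without TTNPB replicate 1D or 3E and 20 without vehicle replicate 1E.

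The 18 lower records without a gene name held the 2 largest falls, both chosen here after their values were seen. One clone record had 0 to 1.38 FPKM (median 0.376) in the TTNPB libraries, against 0.739 to 9.51 FPKM (median 3.48) in the vehicle libraries, a log2 change of -1.59 ± 0.33 (SE; adjusted p = 0.0209). The other had under 0.001 to 1.28 FPKM (median 1.02) in the TTNPB libraries, against 1.33 to 9.70 FPKM (median 3.14) in the vehicle libraries, a log2 change of -1.44 ± 0.30 (SE; adjusted p = 0.0210), with no overlap. A record described only as a homeobox protein had 4.43 to 11.7 FPKM (median 8.95) in the TTNPB libraries, against 12.99 to 20.5 FPKM (median 16.1) in the vehicle libraries, a log2 change of -0.91 ± 0.14 (SE; adjusted p = 0.00191). An ADAM metallopeptidase with thrombospondin repeats, its family member not given, fell with a log2 change of -0.56 ± 0.07 (SE; adjusted p = 2.57e-04). The most abundant faller, a clone record, had 333 to 483 FPKM (median 381) in the TTNPB libraries, against 429 to 583 FPKM (median 505) in the vehicle libraries, a log2 change of -0.36 ± 0.07 (SE; adjusted p = 0.0105).

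**Figure D4:**
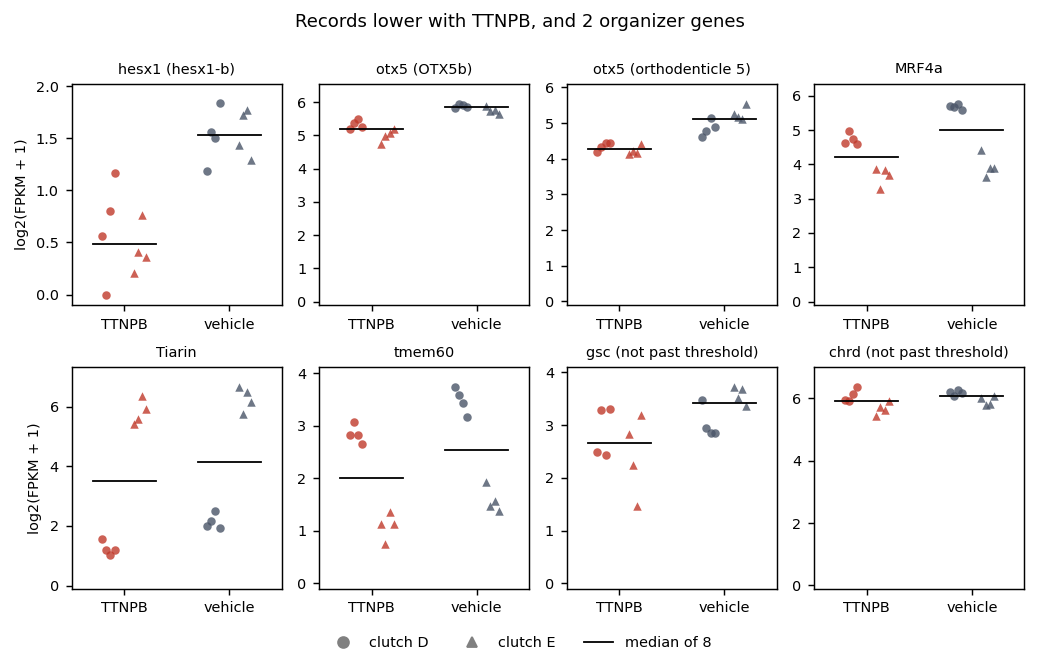
Each panel shows log2(FPKM + 1) in the 16 libraries for 1 record, TTNPB (red) left of vehicle (grey), with circles for clutch D, triangles for clutch E and a line at the median of 8. The groups are apart for *hesx1* and both *otx5* records. *MRF4a*, Tiarin and *tmem60* stand at different levels in the 2 clutches, and *gsc* and *chrd* overlap between the groups.

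Records with a mean of 0.2 to 1 FPKM, which a filter at 1 FPKM would remove, held a smaller share of called records. Of the 6015 such records 21 were higher, which is 0.349%, and none was lower, while 1.22% of the records averaging 1 FPKM or more were higher. The mean is over all 16 libraries, TTNPB included, so a record low with vehicle that rises strongly leaves this range. Of the 260 higher records 58 had a vehicle mean under 1 FPKM. The shares thus depend in part on the response itself, and nothing is read from their difference. In this range 262 higher and 135 lower records had an unadjusted p under 0.05. The 21 log2 changes lay between 0.40 and 1.37 on the log2(FPKM + 1) scale, where low records show compressed changes. In 6 of the 21 every TTNPB value lay above every vehicle value, an arrangement found in 0.116% of the 6015. A pseudocount of 0.1 kept 18 of the 21. Without TTNPB replicate 4D and vehicle replicate 3D the count was 10. It was 9 without TTNPB replicate 4D alone, 10 without vehicle replicate 3E or 4E, 11 without TTNPB replicate 4E or vehicle replicate 2E, and 12 without TTNPB replicate 2E or vehicle replicate 1E.

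A gene name could be given to 6 of these 21 records. A homeobox record described as XlHbox4 had 0.961 to 3.13 FPKM (median 1.64) in the TTNPB libraries, against 0 to 0.326 FPKM (median under 0.001) in the vehicle libraries, a log2 change of 1.37 ± 0.13 (SE; adjusted p = 4.89e-06). It was at or near 0 in most vehicle libraries and near or above 1 FPKM in all TTNPB libraries. The LIM homeobox record Xlim-3 had 0.379 to 2.46 FPKM (median 1.27) in the TTNPB libraries, against under 0.001 to 0.390 FPKM (median 0.191) in the vehicle libraries, and its change of 0.82 ± 0.17 (SE; adjusted p = 0.0239) was lost in 6 of the 16 fits that each left out 1 library, with an adjusted p of up to 0.0598 (without vehicle replicate 1E). Nuclear factor I-B1, a CCAAT-binding transcription factor, had 0.465 to 1.14 FPKM (median 0.932) in the TTNPB libraries, against 0 to 0.549 FPKM (median 0.106) in the vehicle libraries, a log2 change of 0.69 ± 0.12 (SE; adjusted p = 0.00321). *Gli2*, a zinc finger factor of Hedgehog signalling, had 0.608 to 1.69 FPKM (median 1.22) in the TTNPB libraries, against 0.113 to 0.916 FPKM (median 0.368) in the vehicle libraries, a log2 change of 0.65 ± 0.12 (SE; adjusted p = 0.00967).

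The last 2 encode matrix proteins. *col5a1*, a fibrillar collagen gene, had 0.252 to 0.986 FPKM (median 0.490) in the TTNPB libraries, against 0.0461 to 0.289 FPKM (median 0.147) in the vehicle libraries, and its change of 0.44 ± 0.10 (SE; adjusted p = 0.0377) was lost in 11 of the 16 fits that each left out 1 library, with an adjusted p of up to 0.0914 (without vehicle replicate 1E). SPARC, a collagen-binding glycoprotein, had 0.254 to 0.695 FPKM (median 0.330) in the TTNPB libraries, against 0 to 0.278 FPKM (median 0.0293) in the vehicle libraries, and its change of 0.40 ± 0.09 (SE; adjusted p = 0.0487) was lost in 14 of the 16 fits that each left out 1 library, with an adjusted p of up to 0.105 (without vehicle replicate 4E). Both calls were also lost with quantile scaling.

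Some higher records without a gene name were at or near 0 with vehicle. One clone record was listed at 0 in all 8 vehicle libraries and had under 0.001 to 4.09 FPKM (median 1.99) in the TTNPB libraries (adjusted p = 0.00699). No fold is given for it. A hypothetical protein record had 5.45 to 14.9 FPKM (median 10.02) in the TTNPB libraries, against 0.284 to 0.938 FPKM (median 0.593) in the vehicle libraries, a log2 change of 2.78 ± 0.16 (SE; adjusted p = 7.69e-09). Another stood at 2.03 to 7.18 FPKM (median 5.45) in the TTNPB libraries, against 0 to 0.586 FPKM (median 0.201) in the vehicle libraries, a log2 change of 2.16 ± 0.21 (SE; adjusted p = 7.86e-06). In both the groups were apart. An unnamed protein record with a clear vehicle level had 35.1 to 50.3 FPKM (median 42.8) in the TTNPB libraries, against 6.28 to 12.2 FPKM (median 7.23) in the vehicle libraries, a log2 change of 2.32 ± 0.12 (SE; adjusted p = 3.69e-09). A record described as related to the NK6 homeobox factors had 11.6 to 22.3 FPKM (median 19.2) in the TTNPB libraries, against 2.91 to 8.64 FPKM (median 4.18) in the vehicle libraries, a log2 change of 1.72 ± 0.16 (SE; adjusted p = 7.65e-06). These records were chosen after their values were seen.

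The named risers outside the gene lists and the 25 largest included secreted and metabolic genes, also chosen after their values were seen. Kielin, a secreted BMP modulator related to Chordin, had 1.499 to 4.22 FPKM (median 2.92) in the TTNPB libraries, against 0.292 to 1.13 FPKM (median 0.774) in the vehicle libraries, a log2 change of 1.17 ± 0.11 (SE; adjusted p = 6.16e-06). Twisted gastrulation, a secreted BMP-binding protein, had 3.12 to 6.64 FPKM (median 5.17) in the TTNPB libraries, against 0.653 to 2.63 FPKM (median 1.94) in the vehicle libraries, a log2 change of 1.11 ± 0.15 (SE; adjusted p = 3.26e-04). The Hedgehog ligand record hh4 had 7.09 to 10.7 FPKM (median 8.60) in the TTNPB libraries, against 2.23 to 4.68 FPKM (median 3.34) in the vehicle libraries, a log2 change of 1.17 ± 0.11 (SE; adjusted p = 7.65e-06). In all 3 the groups did not overlap. *fzd6*, another Frizzled gene, rose by 0.89 ± 0.13 (SE; adjusted p = 0.00121), and Xror2, a receptor tyrosine kinase of the Ror family, by 0.47 ± 0.08 (SE; adjusted p = 0.00582). C/EBP delta, a basic leucine zipper factor, rose by 1.32 ± 0.17 (SE; adjusted p = 2.61e-04).

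Among metabolic genes, both records of 7-dehydrocholesterol reductase, the last enzyme of cholesterol synthesis, were higher. One stood at 9.47 to 15.9 FPKM (median 13.6) in the TTNPB libraries, against 4.65 to 9.37 FPKM (median 6.59) in the vehicle libraries, and changed by 0.95 ± 0.12 (SE; adjusted p = 2.15e-04). The other changed by 0.90 ± 0.19 (SE; adjusted p = 0.0203). Guanidinoacetate methyltransferase, which makes creatine, had 12.1 to 25.5 FPKM (median 18.9) in the TTNPB libraries, against 2.97 to 10.2 FPKM (median 7.30) in the vehicle libraries, a log2 change of 1.31 ± 0.20 (SE; adjusted p = 0.00107). *pfkfb3*, a regulator of glycolysis, had 51.2 to 80.02 FPKM (median 60.2) in the TTNPB libraries, against 34.2 to 43.2 FPKM (median 37.6) in the vehicle libraries, a log2 change of 0.69 ± 0.07 (SE; adjusted p = 7.10e-06). The groups were apart in both. DG42, a hyaluronan synthase and the most abundant named riser, had 392.02 to 492.9 FPKM (median 442) in the TTNPB libraries, against 216 to 395 FPKM (median 306) in the vehicle libraries, a log2 change of 0.54 ± 0.08 (SE; adjusted p = 0.00121). X-epilectin, a lectin of the embryonic epidermis, averaged 0.577 FPKM with TTNPB and 0.341 FPKM with vehicle in clutch D, and 4.34 FPKM with TTNPB and 0.484 FPKM with vehicle in clutch E, a change of 1.05 ± 0.25 (SE; adjusted p = 0.0487). Its difference between the clutches did not pass (limma interaction, adjusted p = 0.339).

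The 2 clutches, which are the independent egg batches of the comparison, were set side by side for the called records. The 260 higher records had a median log2 change of 0.87 in clutch E and 0.70 in clutch D, and 186 of them changed more in clutch E. The 31 lower records had a median of -0.49 in clutch E and -0.56 in clutch D. All 4 TTNPB values lay above all 4 vehicle values in clutch E for 238 of the 260 higher records, and in clutch D for 185. Over all tested records this held for 4.28% in clutch E and 2.11% in clutch D. The 260 were chosen on these same values, so nothing is read from their counts. No record passed a test of a different response in clutch E than in clutch D (limma interaction of exposure and clutch, smallest adjusted p = 0.187), while 1315 of the 25582 had an unadjusted p under 0.05, 37 of them among the 291. Without TTNPB replicate 1D 1 record passed. The median SE of that difference was 0.29 on the log2 scale, against 0.15 for the change itself, so differences between clutches were measured less precisely.

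Fitted alone, clutch E gave 160 higher and 10 lower records and clutch D gave 33 higher and 2 lower. Of the 291 records 28 passed in each clutch alone. With the 2 clutch means as the replicates of each exposure 25 records passed, all higher, and 24 of them were among the 291. Of the 62 named records past the threshold 18 passed with clutch means, among them the *cyp26a1* and *gbx2* records, *hoxa3*, *hoxb1*, *hoxd1*, *nr6a1* and *efs*, and none of the fallers did. Neither *rara* nor *cdx4* did. That fit holds a single mean per exposure and clutch, so its threshold is harder to reach. Missing it does not show that the clutches differed.

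**Figure D5:**
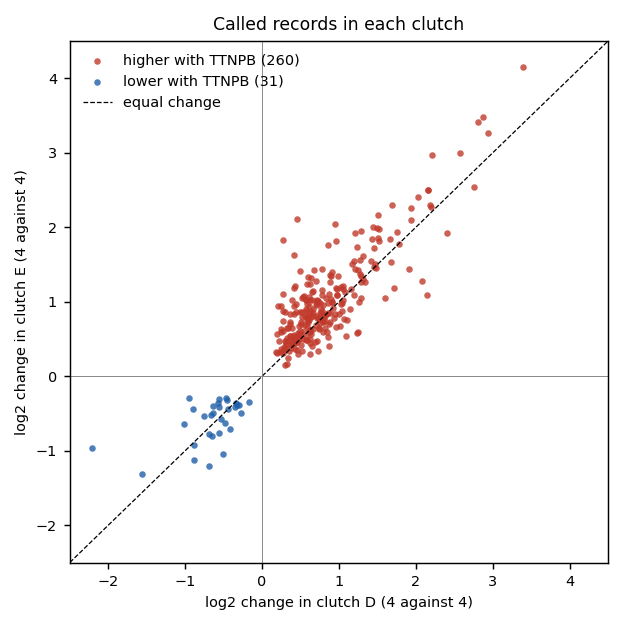
The log2 change in clutch E (vertical axis) is plotted against that in clutch D (horizontal axis) for the 291 records past the threshold, 4 TTNPB against 4 vehicle libraries in each, with higher records in red, lower records in blue and a dashed line at equal change. All points lie in the upper right or lower left part, and 186 of the 260 red points lie above the line.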

How the data were processed

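RNA was measured in pools of whole *Xenopus laevis* embryos. The labels' protocols name NuGEN Ovation V2 amplification of the RNA and SOLiD fragment sequencing. The tools Bowtie, Cufflinks and TopHat are named in the submitters' processing notes. Versions, alignment target and genome build are not given in the sources used here. FPKM values were deposited by the authors per GenBank record and library. Such estimates carry no read numbers, so depth is unknown and no count test was run. Of 500896 values in the 16 libraries 28275 lay above 0 and under 0.001 FPKM, and these are printed as under 0.001. No 2 of 120 library pairs held identical values. None of the per-sample columns was left without a sample.

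Computed here were log2(FPKM + 1) values and 1 limma fit (version 3.58.1 in R 4.3.3, trended empirical Bayes) over the 16 libraries with exposure and clutch as terms, for records averaging 0.2 FPKM or more. Fold changes are on that scale. P-values are two-sided, with Benjamini-Hochberg adjustment across the 25582 records and a threshold of 0.05. The script was tested on simulated data. Gene symbols came from 2224 NCBI gene numbers in descriptions, matched to the RefSeq gene table of Xenopus_laevis_v10.1, and from 266 descriptions. Overlaps between groups and list counts are descriptions.

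Named with values were the 25 largest named rises and every named fall (at most 20). Added to these were up to 8 rises and 8 falls of 0.2 to 1 FPKM and up to 3 rises and 3 falls per gene list. For all of these the direction had to agree in both clutches. A fixed set was named whatever its result. Further records are named as chosen after seeing their values. The records, lists and rule were chosen with earlier results of these data known. Some genes, including ones the rule names, are not reported here. The AGN193109 libraries entered 1 alternative fit. Alternatives were other pseudocounts, filters, scalings and thresholds, other model terms, each clutch alone, clutch means, array weights and each library left out.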

Additional observations from a re-analysis of the deposited data

Results flagged for a closer look

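Single libraries stood far from the other 7 of their group in 7 of 138 checks (Dixon's test at the 95% level, critical value 0.526 for 8 values, each group of each of 69 named records). The 95% level means about 1 flag in 20 groups by chance if all 8 values come from 1 normal distribution. Each group here joined 2 clutches, so that rate need not hold. Nothing is read from the number of flags. Vehicle replicate 2D had 1.68 FPKM of *hoxb1*, against 0 to 0.466 FPKM in the other vehicle libraries, and 0.549 FPKM of nuclear factor I-B1, against 0 to 0.198 FPKM. TTNPB replicate 2D had 22.3 FPKM of *meis3*, against 37.5 to 47.1 FPKM in the other TTNPB libraries, and 10.8 FPKM of *fzd4*, against 13.4 to 16.01 FPKM. In the second *cyp26a1* record TTNPB replicate 2E had 159.8 FPKM, against 112 to 129 FPKM, and vehicle replicate 3D had 22.002 FPKM, against 11.4 to 14.99 FPKM. The *hesx1* record XANF-2 had 1.82 FPKM in vehicle replicate 2E, against under 0.001 to 0.5003 FPKM. The calls of *hoxb1*, nuclear factor I-B1, *meis3*, *fzd4* and *cyp26a1* passed in all 16 fits that left out 1 library.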

How the results depend on the processing

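The total was 291 records past the threshold, with 260 higher, 31 lower and 21 of 0.2 to 1 FPKM. Fitting all 24 libraries together gave 188 in all and 9 lower. No clutch term gave 181, with 171 higher and 10 lower. Clutch D alone gave 35, with 33 higher, 2 lower and 3 of 0.2 to 1 FPKM. Clutch E alone gave 170, with 160 higher and 10 lower. Clutch means gave 25, all higher, with 0 lower and 0 of 0.2 to 1 FPKM. An adjusted p of 0.01 gave 156, with 148 higher, 8 lower and 7 of 0.2 to 1 FPKM. A tested fold of at least 1.5 gave 42, all higher, with 0 lower and 1 of 0.2 to 1 FPKM. Quantile scaling gave 50 lower. Leaving out both TTNPB replicate 4D and vehicle replicate 3D, an alternative chosen after seeing the data, gave 20 lower and 10 of 0.2 to 1 FPKM. With 1 library left out at a time the total ran from 207 to 330, the higher from 190 to 295, the lower from 16 to 36 and those of 0.2 to 1 FPKM from 9 to 23. The test of a different response in the 2 clutches gave 0, with no filter 2, and 0 to 1 with 1 library left out. Apart from the replicate block described below, all other counts lay within 1.5 times of these.

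Replicate numbers do not pair the libraries by the labels. After the mean of each exposure and clutch was subtracted from each record, same-numbered TTNPB and vehicle libraries had correlations of -0.0615 to 0.0305. Before that step all library pairs correlated at 0.912 to 0.961. With the replicate block in place of clutch, 16 records were lower and 10 of 0.2 to 1 FPKM passed. Of the 62 named records past the threshold 16 passed under every alternative, and no named record changed direction while past the threshold. The causes of these differences were not tested. The depth of the libraries is unknown, only 2 clutches were used, and low records are measured on a scale that compresses their change.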
